A study of Mus musculus with 3 samples.

Results

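The 4 genes described here are the dopamine receptor genes Drd1 and Drd3 and the adrenergic receptor genes Adra1a and Adra2a. They were taken by name from the authors' tables of cluster marker genes for nuclei of the mouse lateral septum. They are 4 of the 1039 different genes in these tables, and account for 11 of 2750 rows and for 10 of 55 clusters. Each row sets the nuclei of 1 cluster against all others of its table by a log2 fold change, and gives detection, the percentage of nuclei in which a transcript of the gene was found, for both sides.

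The nuclei came from 8 naïve male C57BL/6J littermates aged 3 months, with no genetic change or treatment. Punches of 500 µm from sections of 200 µm were pooled, and the sorted nuclei were made into 3 droplet libraries, which form a single group. The labels state that medial septum, triangular septum, prefrontal cortex or striatum may have been included in part. The broad table covers all nuclei in 25 clusters, the GABA table covers the GABA neurons in 22 subclusters, and the Sst table covers nuclei labelled Sst in 8 subclusters. Each cluster has a list of 50 genes, and a gene that is not listed may still be expressed there. Values are pooled over mice and libraries, and the number and depth of nuclei are unknown. No value therefore has a replicate error, no test over animals was possible, and differences are described without significance. Of 11 marker genes of lateral septum GABAergic neurons, 7 were listed in the broad table, where 4.05% of all features were listed. Trpc4, Prdm16, Zic1 and Zic2 were not listed there. The general GABAergic markers Gad1, Gad2 and Slc32a1 were listed in none of the tables.

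The lateral septum receives dopamine fibres from the ventral midbrain and noradrenaline fibres from the brainstem. Neurons that respond to these amines carry G-protein-coupled receptors. Drd1 encodes the D1 dopamine receptor, which couples to stimulatory G proteins and raises cyclic AMP. Drd3 encodes the D3 receptor, of the D2-like class, which couples to inhibitory G proteins. Adra1a encodes the α1A adrenergic receptor, which acts through Gq, phospholipase C and calcium release. Adra2a encodes the α2A adrenergic receptor, which couples to inhibitory G proteins and also serves as the autoreceptor of noradrenaline neurons.

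The genes differ greatly in size, which matters for nuclear RNA because unspliced transcripts are counted by some pipelines. On GRCm38 (GENCODE M21), Drd1 occupies 4523 bases of chromosome 13, on the minus strand from 54051183 to 54055705. Adra2a lies on chromosome 19 from 54044151 to 54048982 on the plus strand, spans 4832 bases and has no annotated sequence outside exons. Drd3 lies on chromosome 16 from 43754026 to 43822932 on the plus strand, and 97.5% of its 68907 bases are intronic. Adra1a lies on chromosome 14 from 66635251 to 66771168 on the plus strand and is the longest, at 135918 bases, of which 93.6% are intronic. Detection is not scaled to gene length, so its order between genes is not an order of transcript levels.

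Drd3 and Adra2a were listed for the same broad cluster, and the bases before their transcription starts are shown because they differ in base composition. RefSeq promoters (GRCm38.p6) were found for 3 of the 4 genes. The capitals mark the letters CCAAT, which read ATTGG on the opposite strand, and the TATA box letters TATAAA. Other letters searched on both strands were GGGCGG (GC box), TGACG (the core of a cyclic AMP response element) and CACGTG (E-box). The Drd3 window is chr16:43761971-43762220, plus strand, which is the 250 bases before the RefSeq start. It lies within a longer GENCODE transcript of Drd3 and overlaps a coding exon of it. The Adra2a stretch is chr19:54045219-54045248, plus strand, from 40 to 11 bases before the RefSeq start. It is annotated as untranslated exon sequence in a longer GENCODE transcript of Adra2a.
Drd3: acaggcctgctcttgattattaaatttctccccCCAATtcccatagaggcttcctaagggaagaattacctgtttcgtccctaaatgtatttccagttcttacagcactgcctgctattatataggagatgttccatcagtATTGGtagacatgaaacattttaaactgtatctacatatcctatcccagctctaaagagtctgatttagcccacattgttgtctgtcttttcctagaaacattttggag
Adra2a: catcctggggcTATAAAaccagtccagcgt

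The Drd3 window had 39.2% G and C and 1 CpG, against 67.6% and 22 CpGs in the 250 bases before Adra2a. Over all 32851 RefSeq promoters the medians were 52.4% and 6 CpGs in windows of that length. The TATA box of Adra2a began 29 bases before the start, and TATAAA was present in 12.4% of all these windows. The Adra2a window also held a GC box, an E-box and the TGACG letters, which occurred in 32.7%, 6.02% and 17.8% of all windows. The Drd3 window held the CCAAT letters in both orientations, and 33.9% of all windows held them at least once. Neither of the 2 windows before Drd1 held the TATA box letters, and 1 of them held a GC box. These matches describe letters and do not show that a factor binds.

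All 4 genes were listed in the broad and GABA tables, while the Sst table listed Drd3 and Adra1a. Of all tested features, 4.05% were listed for at least 1 broad cluster, 3.52% for a GABA subcluster and 1.95% for an Sst subcluster. A single list of 50 genes held 0.243%, 0.249% and 0.276% of the features, in that order. The genes were chosen because they are listed, so nothing is read from that count. Of the 11 listings, 9 had a log2 fold change of at least 2, which 53.5% of all broad, 38.5% of all GABA and 39.8% of all Sst rows reached. Both exceptions were the listings of Adra2a. By detection inside the listing cluster, Drd1 and Adra1a stood at 18.5% to 22.2%, and Drd3 and Adra2a at 7% to 9.8%, in the authors' deposited tables. With 1 pooled value per cluster, it cannot be said which neighbours in this order differ.

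**Figure D1:**
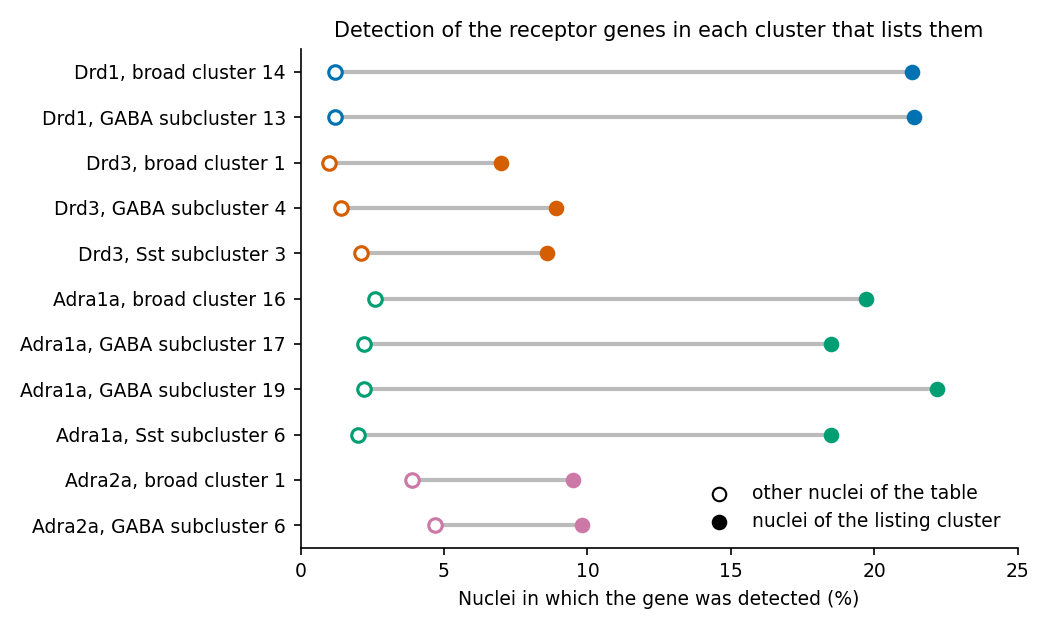
Percentage of nuclei in which each receptor gene was detected (x axis) for each of the 11 listings (y axis), with filled points for the nuclei of the listing cluster and open points for the other nuclei of the same table. Filled points of Drd1 and Adra1a lie between 18.5% and 22.2%, those of Drd3 and Adra2a at or below 9.8%, and the open points of Adra2a, at 3.9% and 4.7%, are the furthest right.

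Drd1 marked the striatal medium spiny neuron-like nuclei and had the largest ratio of detection inside to outside of the 4 genes, 17.8 in both tables. GABA subcluster 13 had 21.4% of nuclei with detected Drd1, against 1.2% outside, and a log2 fold change of 4.39 in the authors' deposited table. Broad cluster 14 had 21.3% against 1.2% and a log2 fold change of 4.36 in the authors' deposited table. Their lists share 43 of 50 genes, with detection inside within 0.9 points for all 43, so the broad value is no separate result. Of 15 medium spiny neuron markers, 10 were listed for subcluster 13 and 11 for broad cluster 14, Drd1 included. A single list holds 0.249% of features in the GABA table and 0.243% in the broad table. The labels name striatum as possible neighbouring tissue, and the origin of these nuclei was not tested. They also listed 1 astrocyte marker of 8, Slc4a4, whose part in the result was not tested. Broad cluster 14, but not subcluster 13, listed 1 of the 11 lateral septum markers, Meis2 (1.28, 93.6% against 57.5%), in the authors' deposited table.

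Subcluster 13 listed 3 of 6 markers of D1 neurons, Drd1, Tac1 and Pdyn, and 2 of 5 markers of D2 neurons, Adora2a and Penk. Drd2 was not listed in any table. The D1 neuron marker Isl1 was listed for other clusters, among them broad cluster 1, and Penk also for GABA subclusters 3 and 12. In the authors' deposited GABA table, Tac1, the substance P precursor gene, was detected in 21.6% of its nuclei, close to the 21.4% of Drd1. Adora2a, the adenosine receptor gene of D2 neurons, was detected in 15.3% of nuclei in the authors' deposited GABA table. Whether these are the same nuclei cannot be read from the tables.

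Genes of the cascade below the D1 receptor were also listed there. Among them, Ppp1r1b and Gng7 are also counted as medium spiny neuron markers, and both lists were chosen with earlier results known. Of all features, 3.52% were listed in the GABA table and 0.249% in a single list. Of 16 genes of the stimulatory G-protein and cyclic AMP pathway, 6 were listed in the GABA table, 5 of them for subcluster 13. The 5 were Ppp1r1b, which encodes the protein kinase A target DARPP-32 (4.66, 35.8% against 2.4%), the phosphodiesterase genes Pde7b (3.74, 67.1% against 11.6%), Pde1b (2.73) and Pde4b (1.82), and the G-protein gamma subunit gene Gng7 (3.18, 33.7% against 5.2%), in the authors' deposited table. Gnal, which encodes the olfactory-type stimulatory G protein used by D1 receptors in striatum, and the adenylyl cyclase gene Adcy5 were not listed in any table. Rgs9, which speeds the shut-off of inhibitory G proteins, ranked just below Drd1 at 4.36 (55.8% against 5.2%) in the authors' deposited table.

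Most nuclei with detected Drd1 nevertheless lay elsewhere. Cluster sizes solved from the deposited percentages gave detection of Drd1 in 1.76% of all GABA nuclei (1.71% to 1.81% from rounding). Subcluster 13, which made up 2.78% of them, held 33.7% of the positive nuclei (32.8% to 34.7% from rounding). The other 66.3% were spread over subclusters whose lists do not name Drd1. In the broad table, cluster 14 held 27.2% of the Drd1-positive nuclei, less than the 46.4% of Drd3-positive nuclei in the larger cluster 1. Among the 10 listed medium spiny neuron markers, the part held by subcluster 13 ran from 15.6% for Penk to 68.6% for Adora2a, and Drd1 ranked number 3. Pdyn, at 32.9%, lay within the rounding range of Drd1, and the rounding range of Tac1, at 32.2%, overlaps it. The order of these genes is therefore not settled. For broad cluster 14, Drd1 ranked number 4 of the 11 listed markers, between Pdyn at 29.6% and Tac1 at 26.2%. Rounding leaves that place unsettled too. Detection outside was 0.0561 of that inside for Drd1, against 0.0131 for Adora2a, 0.0602 for Tac1 and 0.0583 for Pdyn. The part of the outside detection that is due to free RNA was not tested.

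By shared listing clusters over the 55 clusters of the 3 tables, 17 genes had exactly the listing of Drd1. Nearest to it in detection were Tac1, the sodium channel subunit gene Scn4b and the protein kinase gene Prkch. Tac1 differed from Drd1 by a distance of 0.742 percentage points over both clusters, against 3.97 for Scn4b and 5.91 for Prkch. Nearest in log2 fold change were Sh3rf2, Pdyn and Rgs9, so that ranking gave 3 other genes.

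Drd3 was rare, and by log2 fold change it ranked first in 1 of its 3 lists. It had the largest log2 fold change of the 50 genes of broad cluster 1, at 3.16, with detection in 7% of nuclei against 1% in the authors' deposited table. In GABA subcluster 4 it ranked number 2, at 2.86 (8.9% against 1.4%) in the authors' deposited table. In Sst subcluster 3 it ranked number 7, at 2.12 (8.6% against 2.1%), in the authors' deposited table. Ranked by the difference in detection instead, it fell to places 23, 40 and 36 of 50. In each cluster more than 9 in every 10 nuclei had no detected Drd3.

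GABA subcluster 4 and Sst subcluster 3 shared 35 listed genes, with detection inside within 0.8 points for all 35. The Sst value is therefore no separate result. These clusters stay unnamed, since subcluster 4 listed 1 marker of another class, Nxph1 of interneurons, and 0 of the 11 lateral septum markers. Its leading genes detected in at least 25% of nuclei were Car10 (1.97, 73.2% against 31.6%), the GDNF receptor gene Gfra1 (1.97, 60.9% against 20.1%) and the NMDA receptor subunit gene Grin3a (1.93, 36.1% against 10.5%) in the authors' deposited table. Among other receptor genes the subcluster listed the galanin receptor gene Galr1 (2.23, 4.1% against 0.9%), which like Drd3 couples to inhibitory G proteins, in the authors' deposited table. The muscarinic acetylcholine receptor gene Chrm2 (1.48, 49.3% against 23.8%) couples the same way and was also listed in the authors' deposited table.

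Of 17 genes of inhibitory G-protein signalling, 0 were listed for GABA subcluster 4, where a list holds 0.249% of features, so nothing is read from that count. The genes with exactly the listing of Drd3 were 3 in number: the diacylglycerol kinase gene Dgkk, the synaptic scaffold gene Homer3 and the transcript RP24-230H23.1. In GABA subcluster 4 these were detected in 5.6%, 4.6% and 4.2% of nuclei in the authors' deposited table, each less often than Drd3.

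Detection of Drd3 over all GABA nuclei was 1.91% (1.86% to 1.96% from rounding). Subcluster 4 made up 6.79% of GABA nuclei and held 31.7% of the Drd3-positive ones. Within the Sst table it was detected in 3.55% (3.50% to 3.60%), and subcluster 3 held 54.1% of them from 22.3% of the nuclei. The sizes of GABA subcluster 17 and Sst subcluster 6, whose inside detection differed by at most 0.1 points for 39 of 42 shared genes, put the Sst nuclei at 30.2% of GABA nuclei. If the Sst nuclei are a subset of that size, they held 56.3% of the GABA nuclei with detected Drd3 (54.0% to 58.6% from rounding). Detection in the other GABA nuclei then lay between 1.10% and 1.29%.

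Adra2a was detected in more nuclei of the broad and GABA tables than the other 3 genes, and had the smallest ratio of detection inside to outside. Broad cluster 1 had detection of 9.5% against 3.9% elsewhere and a log2 fold change of 1.32 in the authors' deposited table. In GABA subcluster 6 it had 1.12, with 9.8% against 4.7%, in the authors' deposited table. It ranked number 23 of 50 in the former and number 45 in the latter. Detection inside was thus 2.44 times that outside in the broad table (2.39 to 2.48 from rounding) and 2.09 times in the GABA table, while for Drd1 the ratio was 17.8 in both.

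Broad cluster 1 listed Drd3 and Adra2a together, but the GABA table listed them for different subclusters. Of the 50 genes of broad cluster 1, GABA subcluster 4 listed 22 and subcluster 6 listed 21. Drd3 was among the 16 that only subcluster 4 of this pair listed, and Adra2a among the 15 that only subcluster 6 listed. A further 6 genes were listed for both, and 13 for neither. Listed like Drd3 were Homer3, Galr1, Gfra1 and Grin3a, and listed like Adra2a were the homeobox gene Nkx2-1 and the guidance cue gene Slit2. Detection of Adra2a was nearly equal in broad cluster 1 (9.5%) and subcluster 6 (9.8%), while that of Nkx2-1 was 4.1% and 9.9%. The list of subcluster 4 ended at a log2 fold change of 1.00, close to the 1.12 of Adra2a in subcluster 6. Detection of Adra2a in subcluster 4, and of Drd3 in subcluster 6, is not given in the lists, so the tables do not show that either gene is absent there.

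**Figure D2:**
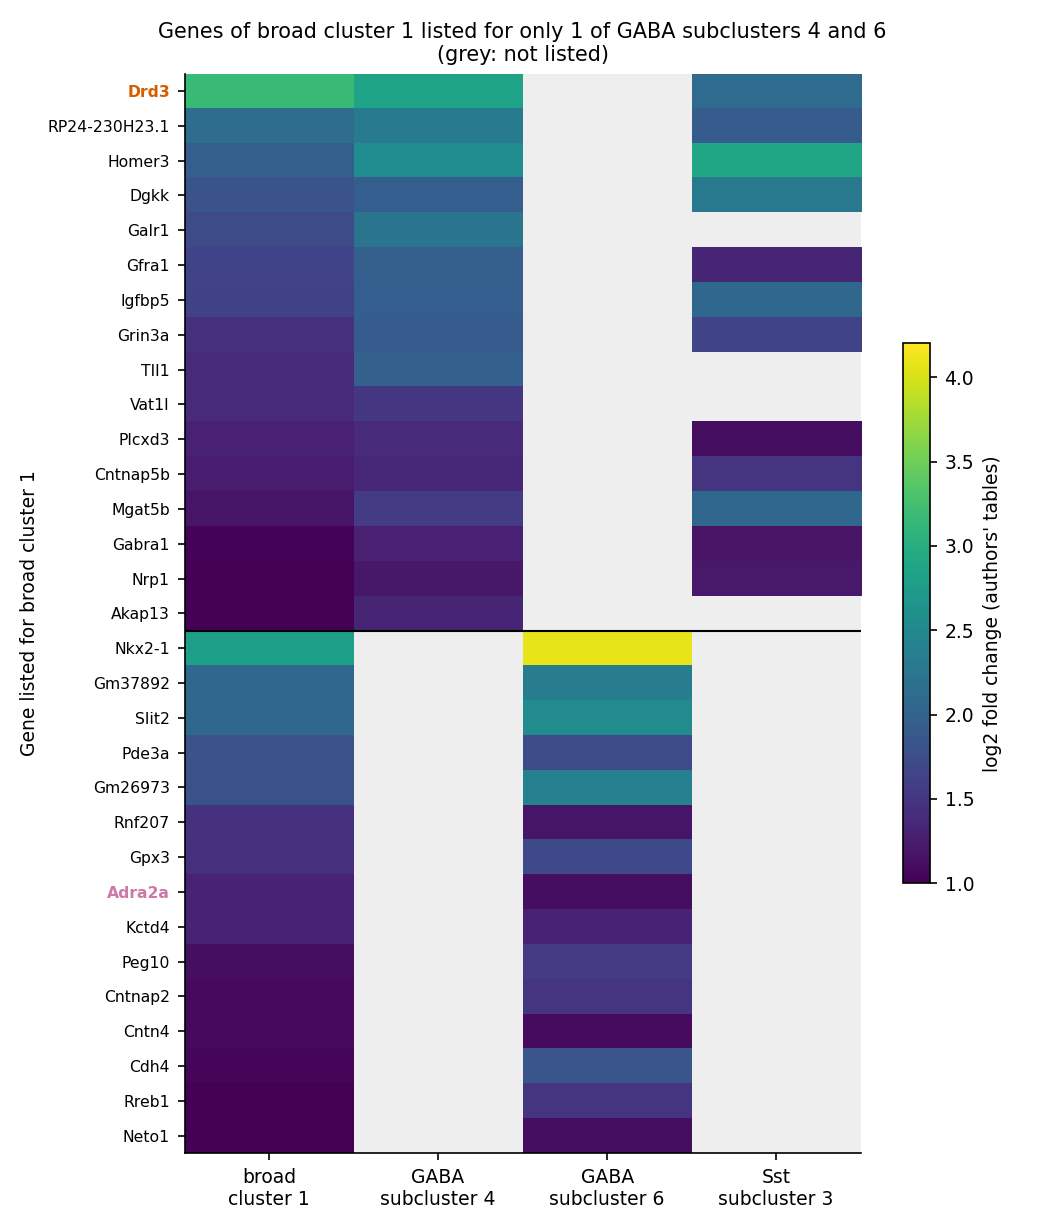
Log2 fold change in the authors' tables (colour) of the genes listed for broad cluster 1 and for 1 of GABA subclusters 4 and 6 but not the other (rows), in broad cluster 1, both GABA subclusters and Sst subcluster 3 (columns), where grey means not listed. A line divides the 16 genes listed for subcluster 4 from the 15 listed for subcluster 6: Drd3 is in the upper block, at 3.16 in broad cluster 1 and 2.86 in subcluster 4, and Adra2a in the lower, at 1.32 and 1.12.

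GABA subcluster 6 also stays unnamed, and like subcluster 4 it listed the interneuron marker Nxph1 (1.52, 92% against 56.8%) in the authors' deposited table. It listed 1 lateral septum marker, Nkx2-1, a transcription factor gene of ventral forebrain progenitors, which had the largest log2 fold change of the list at 4.08 (9.9% against 0.6%) in the authors' deposited table. Slit2 was at 2.55 (69.4% against 17.7%), Fam19a2 at 1.80 (66.8% against 26.1%) and the cyclic nucleotide phosphodiesterase gene Pde3a at 1.73 (36.7% against 13%) in the authors' deposited table. The neuropeptide Y receptor gene Npy2r, which couples to inhibitory G proteins like Adra2a, was listed there from detection in 1.1% of nuclei against 0.1% in the authors' deposited table.

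The listing of Adra2a was shared exactly by 6 genes, among them Nkx2-1 and the cadherin gene Cdh4. Nearest in detection over both clusters were Rreb1 (distance 5.87 points), Kctd4 (6.35) and Nkx2-1 (7.54). Adra2a was detected in 4.99% of GABA nuclei (4.94% to 5.04% from rounding). Subcluster 6 held 11.2% of these from 5.71% of GABA nuclei, so 88.8% lay elsewhere. Broad cluster 1 held 23.2% of Adra2a-positive nuclei from 11.02% of all nuclei, and broad cluster 16 held 13.4% of Adra1a-positive ones from 2%. The part held was thus 2.1 times the share of nuclei for Adra2a and 6.7 times for Adra1a.

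Adra1a marked the interneuron-like nuclei in all 3 tables. Broad cluster 16 had detection of 19.7% against 2.6% and a log2 fold change of 3.31 in the authors' deposited table. The GABA table divides the genes of this cluster between subclusters 17 and 19, and Adra1a was listed for both. Subcluster 17, with the peptide genes Npy, Cort and Sst, had 3.30 (18.5% against 2.2%) in the authors' deposited table. Subcluster 19, with Vip, Cck, Tac2 and Crh, had 3.73 (22.2% against 2.2%) in the authors' deposited table. Detection was 3.7 points higher in subcluster 19, and without the number of nuclei no error can be set on that difference.

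The interneuron marker list of 13 genes had 6 members in broad cluster 16, 5 in GABA subcluster 17, 6 in subcluster 19 and 5 in Sst subcluster 6. A single list holds 0.243% of features in the broad, 0.249% in the GABA and 0.276% in the Sst table. Kcnmb2, a subunit of calcium-activated potassium channels, was at 5.29 (75% against 4%) in subcluster 17 and 3.86 (51.3% against 4.6%) in subcluster 19 in the authors' deposited table. Sst subcluster 6 had Adra1a at 3.48 (18.5% against 2%) in the authors' deposited table. It shared 42 genes with GABA subcluster 17, so it repeats that value and is no separate result.

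Of the 50 genes of broad cluster 16, 14 were listed for both interneuron-like subclusters, 16 for 17 only and 15 for 19 only. Adra1a was 1 of 12 genes listed in all 4 clusters, with Npy, the transcription factor gene Maf, the potassium channel genes Kcnc2 and Kcnmb2, Col19a1, Elavl2, Fgf13, Galntl6, Ptprm, Tcf4 and Ubash3b. Of these, Npy, Maf and Ubash3b had exactly its listing over the 3 tables. The opioid receptor gene Oprd1 was listed with Adra1a in subcluster 17 (4.54, 16.1% against 0.7%), and the orexin receptor gene Hcrtr2, which like Adra1a couples to Gq, in subcluster 19 (4.15, 20.1% against 1.6%), in the authors' deposited table. The serotonin-gated channel gene Htr3a was listed for subcluster 19 from detection in 2.1% of nuclei, and was listed at 0 outside, in the authors' deposited table.

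Of 21 genes of the Gq cascade, 8 were listed in the GABA table over 8 subclusters, and 0 of them for subcluster 17 or 19. Each list holds 0.249% of features, so nothing is read from that count. Outside the fixed list and chosen after its values were seen, the phospholipase C gene Plch2 stood at 4.33 in subcluster 17 of the authors' deposited table, with detection of 13.1% inside and 0.6% outside. Itpr1, the calcium release channel that the cascade opens, was listed for subcluster 11 (2.20) and for the Drd3 subcluster 4 (1.45, 41.2% against 17.3%) in the authors' deposited table.

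Adra1a was detected in 2.46% of GABA nuclei by the values of subcluster 17 and in 2.42% by those of subcluster 19, with rounding ranges of 2.41% to 2.51% and 2.37% to 2.47% that overlap. Together the pair held 21.9% of the positive nuclei from 2.67% of GABA nuclei. In the Sst table, subcluster 6 held 33.6% of the positive nuclei from 5.19% of nuclei.

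**Figure D3:**
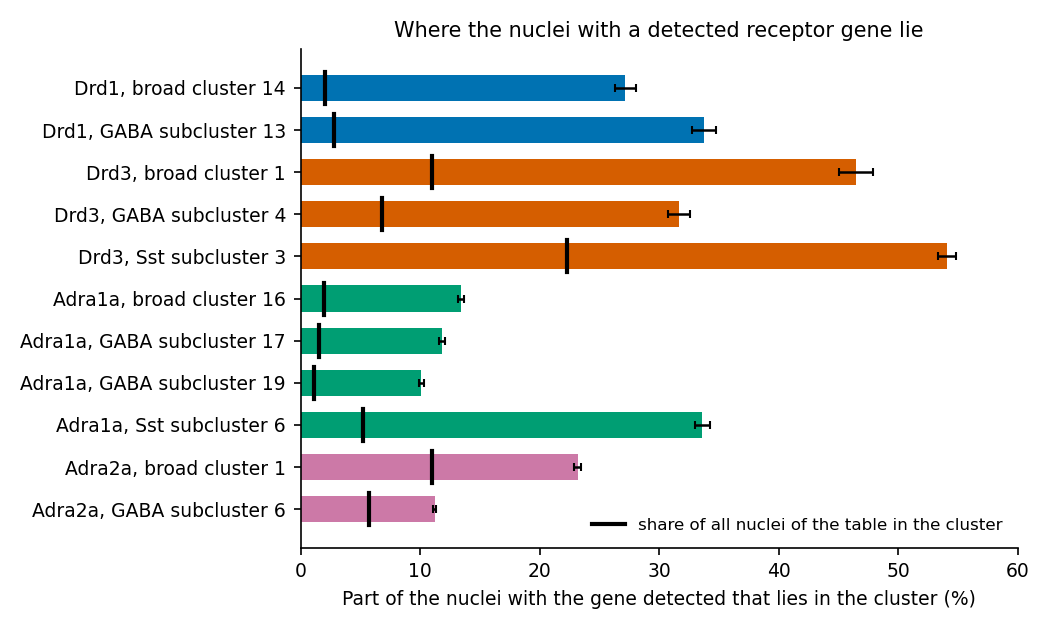
Part of the nuclei with a detected receptor gene that lies in each listing cluster (bars, % of positive nuclei of that table), with bars of error for the rounding of the deposited percentages, and a black line for the share of all nuclei of the table in that cluster. Every bar passes its line, which is fixed in advance because every listed gene is detected more often inside its cluster than outside. Bar and line are 11.2% and 5.71% for Adra2a in GABA subcluster 6, and 33.7% and 2.78% for Drd1 in GABA subcluster 13. Drd3 in Sst subcluster 3 is the only bar above 50%.

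Between the broad and GABA tables, detection over all nuclei differed in direction among the genes. Adra1a was detected in 2.94% of all nuclei (2.89% to 2.99% from rounding) and 2.44% of GABA nuclei, the mean of its pair of values. Drd1, Drd3 and Adra2a were lower over all nuclei, at 1.61%, 1.66% and 4.52%, than among GABA nuclei, at 1.76%, 1.91% and 4.99%. For Drd1 the rounding ranges were 1.56% to 1.66% and 1.71% to 1.81%. Broad cluster 14 and GABA subcluster 13 put the GABA nuclei at 74.2% of all nuclei, if both hold the same nuclei. On that basis Adra1a was detected in 4.39% of the nuclei outside the GABA table (4.11% to 4.68% from rounding) and Adra2a in 3.15% (2.82% to 3.49%). Drd1 was detected there in 1.19% (0.854% to 1.53%) and Drd3 in 0.947% (0.609% to 1.28%). Pairs of clusters sharing at least 40 genes put the GABA nuclei between 68.2% and 84.5%. Adra1a then ranged from 4.03% to 5.68% outside the GABA table. Adra2a ranged from 1.94% to 3.50%, Drd1 from 0.817% to 1.30% and Drd3 from 0.311% to 1.13%. Adra1a lay above its GABA value and the others below theirs. The calculation fixes these directions at any size, since they follow from detection over all nuclei and over GABA nuclei. The sizes tried therefore do not test them. At the largest size the rounding range of Drd3 reached below 0, so that size leaves its level undetermined. Clusters of glia and glutamatergic neurons make up part of those nuclei, and Adra1a was listed for none of them.

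The log2 fold changes of the 4 genes were close to the log2 ratio of detection inside to outside. The fold change passed the ratio by 0.04 and 0.06 for Adra2a, by 0.21 and 0.23 for Drd1, by 0.09 to 0.36 for Drd3 and by 0.23 to 0.40 for Adra1a. Listed genes detected in under 25% of the nuclei of their cluster had a median excess of 0.14 for broad clusters, 0.13 for GABA subclusters and 0.15 for Sst subclusters. Genes detected more often had 0.52, 0.44 and 0.43. Most of each receptor's fold change was thus a difference in how many nuclei had a detected transcript. In nuclei with so few transcripts per gene, fewer expressing nuclei and fewer transcripts per nucleus cannot be told apart.

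**Figure D4:**
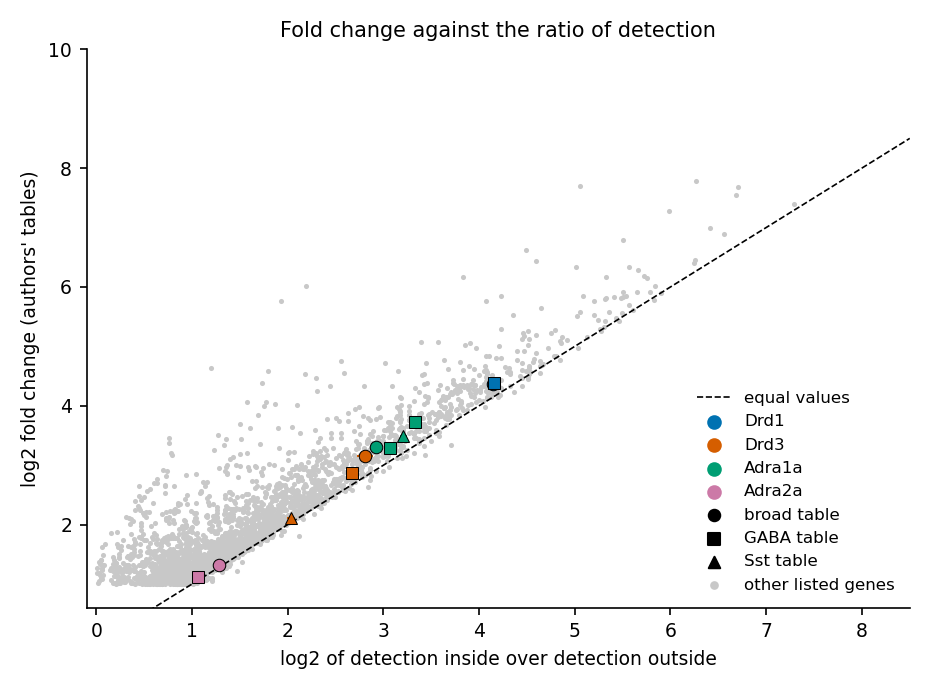
Log2 fold change in the authors' tables (y axis) against the log2 ratio of detection inside to outside (x axis) for all listed genes with detection outside above 0 (grey) and for the receptor genes (colours by gene, shapes by table), with horizontal bars for rounding that are mostly smaller than the symbols. The dashed line marks equal values: both Adra2a points lie on it within 0.06, and Adra1a in GABA subcluster 19 is the furthest above it of the receptor points, by 0.40.

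The rest of the receptor families and the enzymes of their ligands were mostly not listed. The same holds for most features, since 4.05% were listed in the broad, 3.52% in the GABA and 1.95% in the Sst table. Nothing is therefore read from the genes that were not listed. Of 5 dopamine receptor genes, Drd1 and Drd3 were listed, and Drd2, Drd4 and Drd5 were not. Of 9 adrenergic receptor genes, Adra1a and Adra2a were listed, and no β receptor gene was. Of 10 genes of catecholamine synthesis, transport and breakdown, 1 was listed, the vesicular monoamine transporter gene Slc18a2. Its log2 fold change was 2.70 in broad cluster 2 (22.1% against 3.9%) and 2.44 in GABA subcluster 0 (21.4% against 4.6%) in the authors' deposited tables. The synthetic enzyme genes Th, Ddc and Dbh and the transporter genes Slc6a3 and Slc6a2 were not listed, and neither cluster listed any of the 4 receptor genes.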

How the data were processed

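Single-nucleus RNA was measured in 3 libraries from pooled lateral septum tissue. Per the submitters' processing notes, the authors used Seurat 4 with mm10. The sources used here name no aligner, no filter on nuclei, no step for doublets or free RNA, no clustering setting and no test. The deposited log2 fold change is an average, per the file headers; no pseudocount is stated. Detection is a deposited fraction of nuclei with 3 decimals, written here as a percentage. The authors' p-values rest on nuclei, which are not animals, and rank nothing here; all rows passed an adjusted p of 0.05. The ratio of adjusted to raw p gave the number of features tested, 20574 in the broad, 20044 in the GABA and 18109 in the Sst table. Depth and the number of nuclei are unknown, so no interval for counting error was computed. No batch or library values were used.

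Shares of nuclei were solved by least squares, because overall detection computed from each cluster that lists a gene must be equal (286, 258 and 42 genes in the broad, GABA and Sst tables), and the method was tested on simulated data. Ranges from rounding shift each percentage by 0.05 points. Genes were named by rule: the 4 receptors, the 3 genes most like each, the 3 leading genes per cluster detected in at least 25% of nuclei, each receptor's neighbours in rank, and members of fixed pathway and marker lists. Others shown beside a receptor were chosen after their values were seen. The receptors and lists were chosen with earlier results of these data known. A comparison of receptor proteins was not made. Positions are 1-based, from GENCODE M21 on GRCm38, the assembly of mm10, and promoters are from RefSeq on GRCm38.p6. Figures were drawn with matplotlib 3.10.9, and computation ran in Python 3.11.15 (pandas 2.3.3, numpy 2.4.6; scipy 1.17.1).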

Additional observations from a re-analysis of the deposited data

How the results depend on the processing

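Of the 11 listings, 9 stayed with a minimum log2 fold change of 2, which removed both listings of Adra2a. Thresholds on adjusted p could remove none, and 2 ways of matching clusters had to give equal answers because every list has 50 genes, so these say nothing about stability. Of the other 87 recomputed main results, 81 stayed within the rounding range or count limit. Among the 81 are shares solved without the receptor genes, which could not move in the broad and Sst tables. There each receptor is listed for a single cluster, and the solution uses only genes listed for several. Counts of listed receptor genes that fell from 4 to 3 in the broad and GABA tables were also taken as unchanged. Other solutions for the shares moved the part of positive nuclei by at most 0.208 points. The other 6 are detection outside the GABA table, with cluster pairs chosen after seeing the data. With the smallest GABA size Adra1a was 4.03% and Adra2a 3.50%, and with the largest Adra1a was 5.68%, Adra2a 1.94%, Drd1 0.817% and Drd3 0.311%; they moved because the size of the GABA set enters the calculation. Ranking by difference in detection moved all 11 ranks, and by ratio of detection 9 of 11. No paired analysis was possible because all libraries form 1 group and are pooled in the tables, which also prevented leaving out a library.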

Other observations

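Receptors of other amines were also listed among the GABA subclusters. Of 21 serotonin, histamine, acetylcholine and trace amine receptor genes, 7 were listed over 10 of the 22 subclusters, where 3.52% of all features were listed. The serotonin receptor gene Htr2c was detected in 86.4% of the nuclei of subcluster 16 against 41.4% elsewhere, in 79.1% against 40.6% in subcluster 10 and in 77.2% against 40.9% in subcluster 12 in the authors' deposited table. Among the 3 subclusters that list it, Chrm2 had its highest detection in subcluster 15, at 74.5%, compared with 24.4% outside it, in the authors' deposited table. Among the 10 subclusters, 4 and 19 also listed a dopamine or adrenergic receptor gene.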
